A study of Mus musculus with 6 samples.

Results

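Haem, the iron-porphyrin group of cytochromes, catalase and haemoglobin, is built from glycine and succinyl-CoA by a chain of enzymes that begins and ends in the mitochondrion. The first enzyme, 5-aminolevulinate synthase, sets the pace in liver, where its gene Alas1 is induced by drugs and fasting and repressed by haem itself. Haem is opened to biliverdin, carbon monoxide and iron by haem oxygenase, and biliverdin reductases then turn biliverdin into bilirubin. The genes described here are 9 of this route, taken as a given list: Alas1, Alad, Uros, Urod, Cpox, Ppox and Fech for synthesis, and Hmox1 and Blvrb for breakdown. Each was found by its gene symbol in the platform's probe annotation. All 9 were measured, among 15045 genes in all, through 94 probe sets, short probe groups that mostly lie in single exons. All 94 reached the signal minimum, a mean log2 signal of 3 or more in the control or the mutant group.

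The samples were livers of 6 male mice aged 6 to 8 weeks, with 1 exon-level array each. The 3 control mice were labelled wild type. The 3 mutants were Dhx32-/-, homozygous for a mutation of a DEAH-box RNA helicase gene, and the sources used here do not give the kind of mutation. Genotyping assigned the animals, and nothing states whether they were littermates or shared a batch, so p-values measure the spread among these mice. Values are log2 signals; a gene's value is the mean over its probe sets, and differences are mutant minus control, with standard errors (SE) and adjusted p-values from limma over all 15045 genes. Levels of different genes are not compared, since probes differ in brightness.

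Dhx32 read 8.28, 8.85 and 8.62 in control replicates 1 to 3 and 6.35, 6.60 and 7.04 in mutant replicates 1 to 3. The difference was -1.92 (SE 0.23), so the group labels and the gene go together. Even so, Dhx32 missed the threshold of 0.05 over all genes (adjusted p = 0.183 in limma). Of all 15045 genes 1 passed, so a count of 0 passing in a short list says little about its genes. Array medians ran from 6.73 to 6.95. Mutant replicate 1 stood apart, with correlations of 0.935 to 0.940 with the other arrays against 0.960 to 0.973 among the rest. The 8 measured hepatocyte markers of 10 listed had a summed signal of 16.19 to 16.24 (log2) in controls and 16.21 to 16.34 in mutants. In whole tissue, fewer cells of a type and less RNA per cell cannot be told apart.

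Alas1 was the member that separated the groups. It stood at 9.92, 10.69 and 11.63 in control replicates 1 to 3 and at 12.08, 12.12 and 12.31 in mutant replicates 1 to 3. Every mutant lay above every control, although control replicate 3 came near the lowest mutant. The control mean was 10.74 ± 0.86 (SD, n = 3). The mutant mean of 12.17 ± 0.12 (SD, n = 3) was 2.69-fold higher. The difference was 1.43 (SE 0.38), with a 95% interval of 0.57 to 2.29. Over all genes this missed the threshold of 0.05 in limma (adjusted p = 0.943, unadjusted p = 0.00497, rank 64 by p). Including Alas1, 12 of the 15045 genes had a mutant mean higher by at least this much.

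The RefSeq promoter of this gene is shown because Alas1 alone separated the groups. Promoters of 7 members were found in the RefSeq table of build GRCm38.p6, as windows of 250 bases before to 50 after each annotated start. Alas1 has a pair of starts there, on the minus strand of chromosome 9. The 250 bases before the outer one, at chr9:106247955-106248204, read as follows.
Alas1 promoter: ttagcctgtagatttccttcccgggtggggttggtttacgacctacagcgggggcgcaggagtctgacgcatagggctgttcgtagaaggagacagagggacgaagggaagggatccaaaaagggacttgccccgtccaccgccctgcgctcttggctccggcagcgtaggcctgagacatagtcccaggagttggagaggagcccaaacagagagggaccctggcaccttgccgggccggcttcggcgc
A palindrome of 10 letters that nuclear respiratory factor 1 is known to bind begins at base 30 after that start and at base -195 from the inner one. It is in capitals in the 30 bases at chr9:106247906-106247935, minus strand.
Alas1 NRF1 letters: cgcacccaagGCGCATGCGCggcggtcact
This palindrome occurred in 319 of 32851 promoter windows (0.971%), and Alas1 was the only one of the 7 members in the table whose windows held it. The E-box CACGTG, a sequence bound by clock and USF factors, was found in windows of Alad, Urod and Uros, and in 7.15% of all windows. The letters TATAAA (13.6% of all windows) and TGACNNNGC, the core of the antioxidant response element (12.4%), each searched on both strands, were in none of the 11 member windows. A match is a description of the letters and shows no binding.

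**Figure D1:**
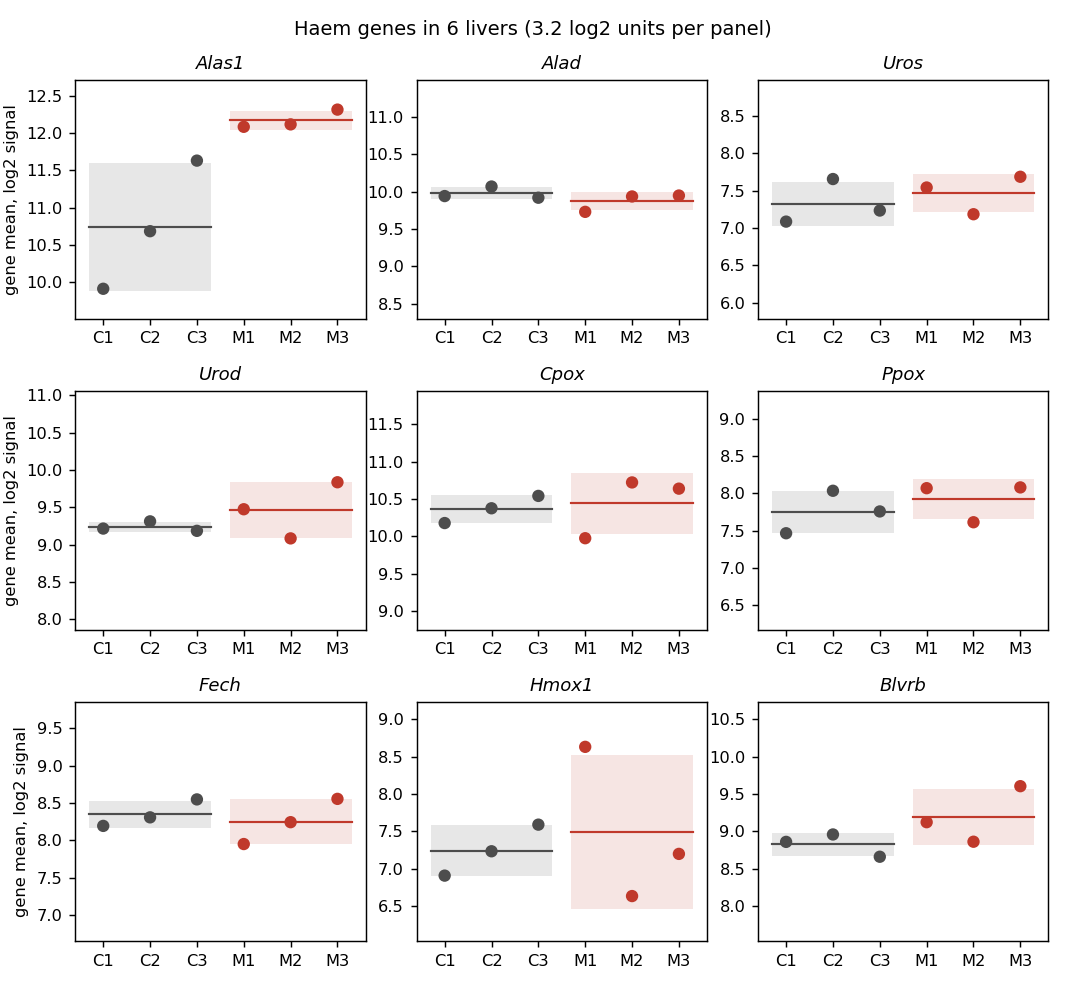
Gene means (log2 signal) of the 9 haem genes on each array, C1 to C3 for control and M1 to M3 for mutant replicates; all panels span the same number of log2 units, lines are group means and shaded bands 1 SD. Alas1 in the mutants lies above all controls, which themselves run from 9.92 to 11.63, and Hmox1 is highest in M1 at 8.63.

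The spread of Alas1 was very unequal between the groups. Its SD among controls was matched or exceeded by 0.625% of all genes, whereas its SD among mutants was matched or exceeded by 81.1%. Among its probe sets the mutant SD was smallest in the bright 4927042 and 4721090, at 0.011 and 0.014, with mutant means of 13.40 and 13.39. It was largest in the dimmest, 4868160, at 0.76, with a mutant mean of 9.05. Whether the bright signal narrowed the spread among mutants was not tested. Since the gene means of the mutants sat close together, the size of the difference turned on which controls were counted. Without control replicate 1, the lowest liver, it was 1.01 (SE 0.28). Without control replicate 3, the highest control, it was 1.87 (SE 0.26). Leaving out any mutant gave 1.36 to 1.47, and 1.47 was the value without mutant replicate 1, the array that stood apart.

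The Alas1 probe sets read alike. All 11 of its probe sets were higher in mutants, by 0.89 to 1.76, and in 10 of them the groups did not overlap. Among all 191663 probe sets tested, 4.01% had mutants wholly above controls, 4.44% wholly below and 8.45% either. In each of the 11 control replicate 1 was the lowest array and control replicate 3 the highest control; they share the same mice, so these are not separate comparisons. The probe set of smallest p, 5612330, read 10.84, 11.16 and 12.09 in controls and 12.82, 13.12 and 12.65 in mutants, without overlap. The largest difference was in probe set 4945167, at 8.56, 9.07 and 10.53 in controls against 11.08, 10.86 and 11.49 in mutants. The smallest was in 4868160, where control replicate 3 (9.52) overlapped the mutants (8.18 to 9.61). None of the 11 passed over all probe sets in limma (adjusted p = 0.994), although 10 had an unadjusted p under 0.05.

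**Figure D2:**
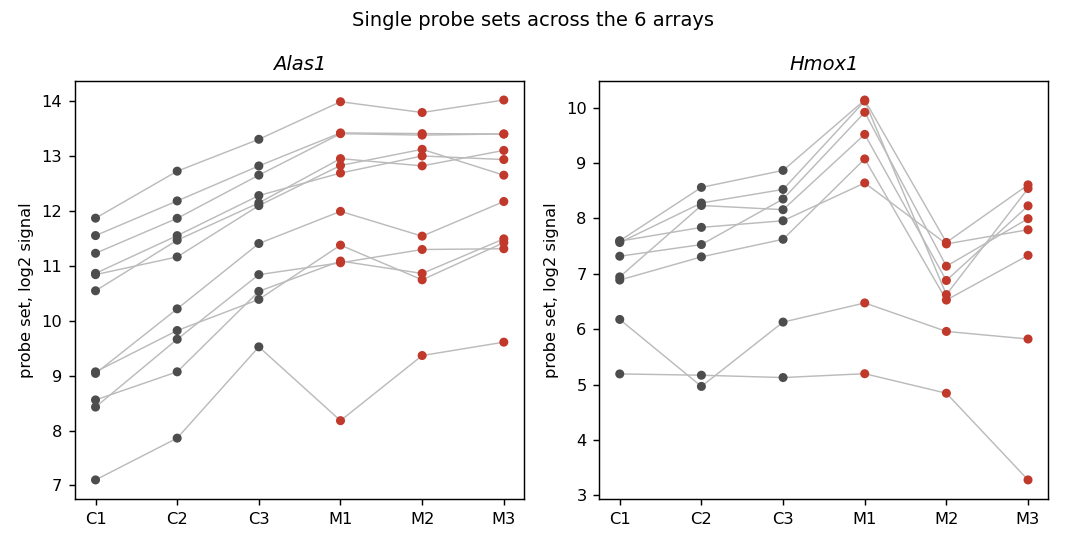
Log2 signal of each of the 11 Alas1 and 8 Hmox1 probe sets on the 6 arrays, 1 grey line per probe set with control points dark and mutant points red. The Alas1 lines all have their lowest point in C1, with the lowest line dipping in M1, and all 8 Hmox1 lines have their highest point in M1.

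For each member after Alas1 in the route the groups overlapped, and none of the differences from Alas1 was tested. Alad, which joins 5-aminolevulinate molecules into porphobilinogen, read 9.94, 10.07 and 9.92 in controls and 9.73, 9.93 and 9.95 in mutants. The mutant replicates 2 and 3 lay within the control range, with a difference of -0.10 (SE 0.15; 95% interval -0.44 to 0.23). Uros, which closes the ring to uroporphyrinogen III, read 7.08, 7.65 and 7.23 in controls and 7.54, 7.18 and 7.68 in mutants (difference 0.15, SE 0.21). Uros is also a neighbour of Dhx32 on chromosome 7, with 1 protein-coding gene between them in RefSeq order. Urod, which removes carboxyl groups from the ring's side chains, read 9.22, 9.31 and 9.19 in controls against 9.48, 9.09 and 9.84 in mutants (difference 0.23, SE 0.20). Mutant replicate 2 lay below all controls here and the other mutants above them.

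At the mitochondrial end of the route the groups overlapped too. Cpox, coproporphyrinogen oxidase, read 10.18, 10.38 and 10.54 in controls and 9.97, 10.72 and 10.64 in mutants (difference 0.08, SE 0.22). Mutant replicate 1 was the lowest liver and the other mutants the highest, so the difference was 0.32 without that array and turned to -0.014, -0.058 and -0.017 without control replicate 1, mutant replicate 2 and mutant replicate 3. Ppox, which oxidises the ring to protoporphyrin, read 7.46, 8.03 and 7.76 in controls and 8.07, 7.61 and 8.08 in mutants (difference 0.17, SE 0.21). Fech, ferrochelatase, which inserts the iron, read 8.19, 8.31 and 8.55 in controls and 7.95, 8.24 and 8.55 in mutants (difference -0.10, SE 0.19; 0.050 without mutant replicate 1). The 95% intervals of Uros, Urod, Cpox, Ppox and Fech lay between -0.55 and 0.69.

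The breakdown genes differed from each other. Hmox1, the inducible haem oxygenase, read 6.91, 7.23 and 7.59 in controls and 8.63, 6.63 and 7.20 in mutants. Mutant replicate 1 was the highest liver and mutant replicate 2 the lowest, so the difference of 0.24 (SE 0.46) averaged opposite values and became -0.33 (SE 0.25) without mutant replicate 1. The mutant SD of 1.03 was matched or exceeded by 0.957% of all genes. In all 8 Hmox1 probe sets mutant replicate 1 was highest, and in 6 mutant replicate 2 was lowest. The largest difference upward was in probe set 5266565, at 7.32, 7.53 and 8.35 in controls and 9.91, 7.14 and 7.99 in mutants. Of the 8, only the dim 5020598 had a lower mutant mean, at 5.19, 5.17 and 5.13 in controls and 5.20, 4.84 and 3.28 in mutants. Blvrb, a flavin and biliverdin reductase also abundant in red cells, read 8.86, 8.96 and 8.66 in controls and 9.12, 8.86 and 9.60 in mutants (difference 0.37, SE 0.21; 95% interval -0.11 to 0.86). Mutant replicates 1 and 3 lay above the controls and mutant replicate 2 among them. Its probe set of smallest p, 4804551, read 8.44, 8.65 and 7.94 in controls and 9.15, 8.45 and 9.34 in mutants. All 7 Blvrb probe sets had a higher mutant mean, by 0.25 to 0.64, and mutant replicate 3 was the highest array in all 7. Without mutant replicate 3 the difference was 0.17, and without mutant replicate 2 it was 0.54 (adjusted p = 0.835 in limma).

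**Figure D3:**
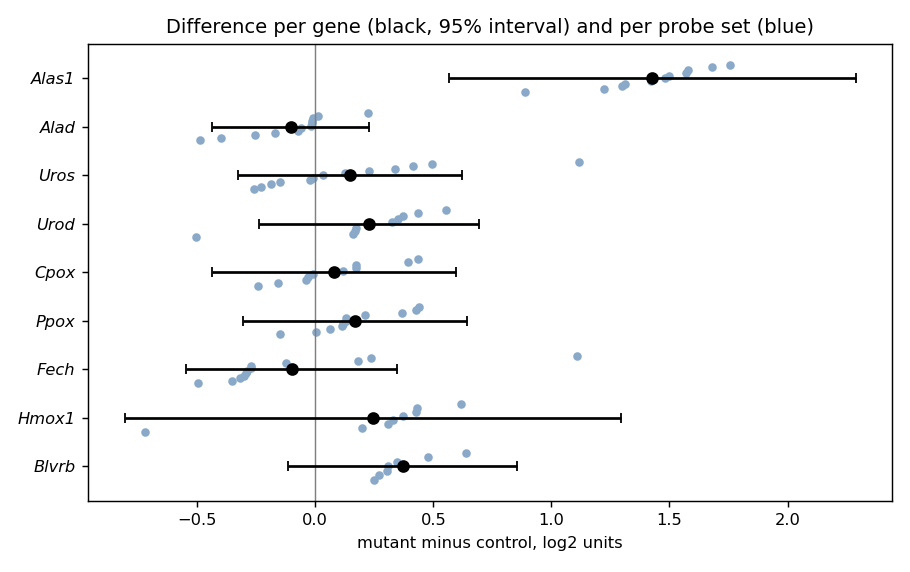
Mutant minus control difference (log2 units) for each haem gene, with the gene's 95% interval in black and its single probe sets in blue. The Alas1 interval of 0.57 to 2.29 excludes 0 and all its probe sets lie to the right; the other 8 intervals include 0.

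Across the route, 7 of the 9 genes had a higher mean in mutants and 2 a lower mean, against 47.5% of all genes higher. The median difference was 0.17, beside -0.014 over all genes. Of the 9, 0 passed in limma, as did 0.00665% of all genes, and Alas1 alone had an unadjusted p under 0.05, as did 4.21% of all genes (2.01% higher in mutants and 2.2% lower). Alas1 was also the only member whose groups did not overlap, as in 9.47% of all genes, with mutants above in 5.15% and below in 4.32%. Adjusted p-values ran from 0.943 to 0.966. Mutant replicate 3 was the highest liver in 6 of the 9 genes and in 24.9% of all genes. It also had the highest array median, and after quantile normalization it was highest in 3 of the 9 and in 12.7% of all genes.

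Genes of like pattern were sought by the root mean square difference of values centred on each gene's mean over the 6 livers, which depends on the range of both genes. Among 2607 named genes with a range of at least 1 log2 unit, those closest to Alas1 were Ifnk, Plk3, Prl8a6 and Rangrf, at 0.43 to 0.50, against a root mean square of 0.87 for Alas1 itself. Ifnk and Prl8a6 were dim, below 5.30 on every array. Those closest to Hmox1 were Pcsk5, Snx10, Osmr and Rasd1, at 0.093 to 0.18, against 0.64 for Hmox1 itself. Each of these 4 was highest in mutant replicate 1, Osmr at 7.69 against 5.71 to 6.92 elsewhere.

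Exon usage asks whether some probe sets of a gene differ between groups in another way than its remaining ones; the F-test of diffSplice in limma was used. None of the 9 genes passed and none had an unadjusted p under 0.05 (adjusted p = 1 for each), where 0.21% of 14310 genes passed and 4% had an unadjusted p under 0.05. Among single probe sets of the members, 0 of 94 passed, as did 0% of all, and 11 had an unadjusted p under 0.05, as did 4.07% of all. Of these, 10 belong to Alas1 and the other is Fech probe set 5066001. It read 2.05, 3.08 and 2.60 in controls and 3.07, 3.95 and 4.03 in mutants (difference 1.11, SE 0.38), while 9 of the 12 Fech probe sets had a lower mutant mean, as did 53.2% of all. This probe set and Uros probe set 4340154 (means 2.50 and 3.62) met the signal minimum only through the mutants, so a higher mutant mean was built into their inclusion. With a minimum of 5 both were left out, and the Fech and Uros differences were -0.21 and 0.065. Probe sets with mutants wholly above controls also occurred once each in Cpox, Ppox and Blvrb, a share of the member probe sets outside Alas1 no larger than the 4.01% of all probe sets. In Cpox 5268550 read 7.73, 7.58 and 7.76 in controls and 8.14, 8.16 and 8.07 in mutants (difference 0.43, SE 0.23). In Ppox 4824197 read 6.26, 6.75 and 6.81 in controls and 7.23, 6.83 and 7.04 in mutants (difference 0.42, SE 0.27). In the others no single probe set separated the groups: the one of smallest p in Alad, 5338843, differed by -0.49 (SE 0.36), and that in Urod, 5381960, by 0.56 (SE 0.28). The probe sets that deviated most from their gene in Urod and Ppox, 4735143 and 5008914, differed by -0.50 (SE 0.45) and -0.15 (SE 0.26).

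Genes known to control Alas1 were read beside it. Of 19 measured regulators and turnover factors of 20 listed, 13 had a lower mutant mean, against 52.5% of all genes, and 0 passed. Sirt1 alone had an unadjusted p under 0.05, a share near the 4.21% of all genes. Sirt1, a deacetylase that acts on PGC-1alpha, read 8.40, 8.70 and 8.57 in controls and 7.55, 8.19 and 8.30 in mutants (difference -0.54, SE 0.22; -0.31 without mutant replicate 1). Ppargc1a, which encodes PGC-1alpha, the coactivator that induces Alas1 in fasting, read 6.10, 7.51 and 7.59 in controls and 5.07, 6.45 and 6.38 in mutants (difference -1.10, SE 0.48; -0.66 without mutant replicate 1). Nr1d1, the clock repressor REV-ERBalpha, which is known to repress Alas1, read 9.13, 10.91 and 10.66 in controls and 7.30, 8.14 and 10.50 in mutants (difference -1.58, SE 0.79; -0.91 without mutant replicate 1 and -2.51 without mutant replicate 3). Mutant replicate 3 thus had the highest Alas1 with Nr1d1 near control replicates 2 and 3, while control replicate 1 had the lowest Alas1 with Nr1d1 below theirs. Clpp, a subunit of the protease that degrades the mitochondrial enzyme, differed by 0.31 (SE 0.16), and Nrf1 by 0.023 (SE 0.17). The clock output gene Dbp was low in the same livers as Nr1d1, at 7.29, 8.93 and 8.71 in controls and 6.90, 6.91 and 8.74 in mutants. The part of the clock genes in the Alas1 values was not tested.

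**Figure D4:**
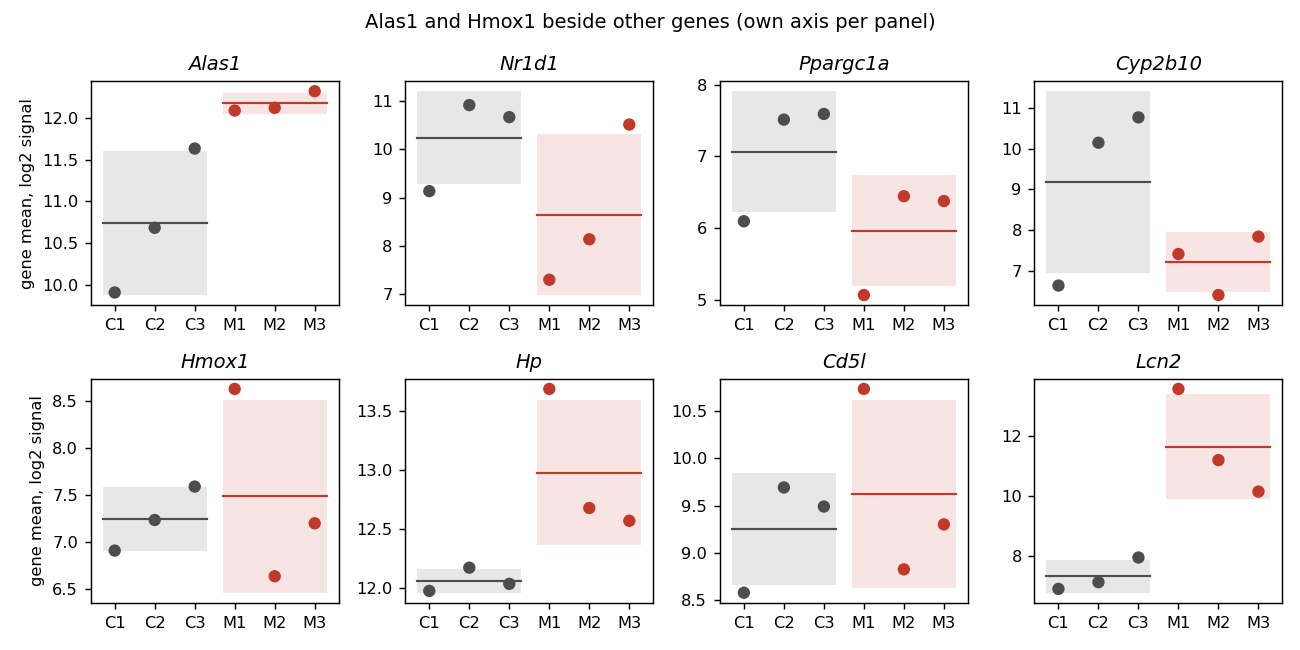
Gene means (log2 signal, a separate axis per panel) of Alas1 and Hmox1 beside Nr1d1, Ppargc1a, Cyp2b10, Hp, Cd5l and Lcn2 on the 6 arrays; lines are group means and bands 1 SD. C1 is the lowest control for Alas1, Nr1d1, Ppargc1a and Cyp2b10, and M1 is highest for Hmox1, Hp, Cd5l and Lcn2.

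Enzymes that carry or serve haem had lower means in mutants, with wide spread. Of 16 measured of 17 listed, 16 had a lower mean, against 52.5% of all genes, with a median difference of -0.31. It was 15 of the 16 after median centring, with the median over probe sets, and without control replicate 1 or mutant replicate 2. With array weights it was 14 of the 16. The list, with Cyp2c55 and Cyp2c37 in it, was chosen with earlier results of these data known. None passed, and Cyp2c55 and Cyp2c37 had an unadjusted p under 0.05 in limma, as did 4.21% of all genes. Cyp2c55 read 7.42, 8.03 and 7.81 in controls and 5.97, 5.21 and 7.39 in mutants (difference -1.56, SE 0.48). Cyp2c37 read 11.15, 11.74 and 12.25 in controls against 9.67, 9.03 and 11.37 in mutants (difference -1.69, SE 0.55). Cyp2b10, a drug-induced P450 whose induction through the receptor CAR is known to accompany that of Alas1, read 6.63, 10.15 and 10.77 in controls and 7.41, 6.40 and 7.84 in mutants (difference -1.97, SE 0.96). Control replicate 1 was the lowest control in both genes. The mutants lay below control replicates 2 and 3 in Cyp2b10 and above all controls in Alas1. The part of CAR in the Alas1 values was not tested. Without control replicate 1 the Cyp2b10 difference was -3.25 (SE 0.42, adjusted p = 0.177 in limma). Cyb5r3, which reduces cytochrome b5, differed by -0.42 (SE 0.24). Without mutant replicate 1, 11 of the 16 had a lower mean and the median was -0.085. Without control replicate 3 it was 12 of the 16, with a median of -0.19.

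**Figure D5:**
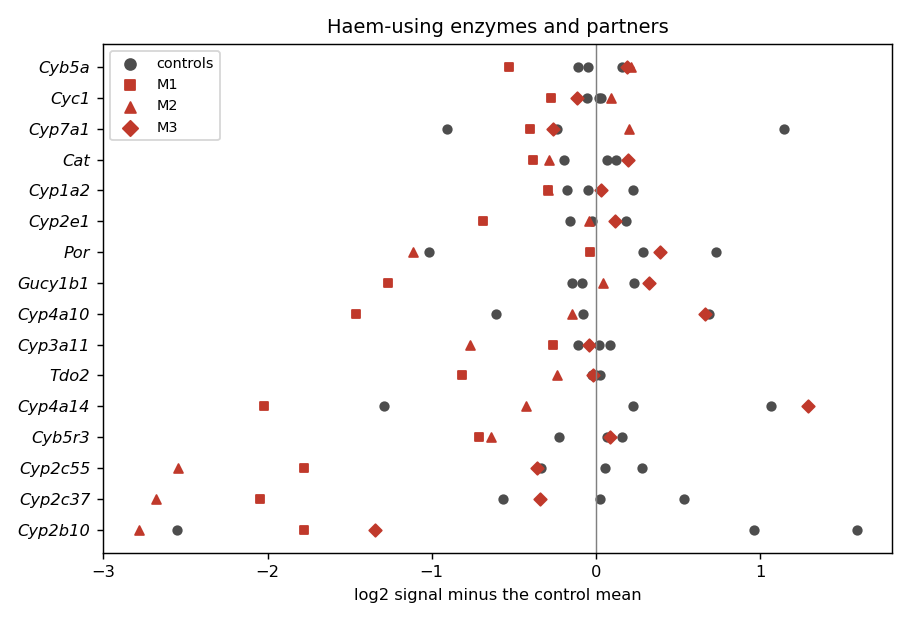
Log2 signal minus the control mean for 16 haem-using enzymes and their partners, with controls as dark circles and mutant replicates 1, 2 and 3 as red squares, triangles and diamonds. M1 or M2 is the lowest point for most of the enzymes, and M3 lies within or near the controls for most.

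In the rest of haem handling only Hp had an unadjusted p under 0.05. The remaining enzymes Blvra, Alas2 and Hmox2 differed by 0.080 (SE 0.15), -0.088 (SE 0.20) and 0.048 (SE 0.14). Hmox2, the constitutive oxygenase, lay between 9.27 and 9.48 on all arrays. Of 17 measured carriers of haem and its precursors 10 had a higher and 7 a lower mean, and 0 passed or had an unadjusted p under 0.05. Slc48a1, which moves haem out of lysosomes, read 9.42, 8.99 and 9.09 in controls and 9.46, 9.50 and 9.67 in mutants (difference 0.38, SE 0.17). Flvcr2 differed by -0.38 (SE 0.22; -0.18 without mutant replicate 1), the haem-binding protein Hebp2 by 0.18 (SE 0.19) and the haem exporter Flvcr1 by 0.16 (SE 0.18). Of 6 plasma haem and haemoglobin binders 4 had a higher mean. Hp, haptoglobin, which binds free haemoglobin and is an acute phase protein, read 11.97, 12.17 and 12.03 in controls and 13.69, 12.68 and 12.57 in mutants (difference 0.92, SE 0.29; 0.56 without mutant replicate 1; adjusted p = 0.943 in limma). Hpx, hemopexin, which binds free haem, differed by 0.34 (SE 0.20; 0.15 without mutant replicate 1), the haemoglobin receptor Cd163 by -0.24 (SE 0.33) and the hemopexin receptor Lrp1 by 0.20 (SE 0.30). All 4 measured genes of bilirubin export and uptake, of 6 listed, had a lower mean in mutants, against 52.5% of all genes. The differences were -0.31 (SE 0.27) for Abcc2, -0.30 (SE 0.26) for Slco1b2, -0.41 (SE 0.38) for Abcc3 and -0.30 (SE 0.37) for Slco1a1. Without mutant replicate 1 the median of these 4 was 0.016, against -0.31 with it.

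Hmox1 is also a target of the oxidative stress factor NRF2. Of 9 measured NRF2 targets of 10 listed 5 had a higher and 4 a lower mean, with 0 at an unadjusted p under 0.05, and in mutant replicate 1 their median lay 0.14 below the control mean. The 4 of smallest p were Me1, malic enzyme (-0.47, SE 0.24), Fth1, ferritin heavy chain (-0.34, SE 0.18), Gsr, glutathione reductase (0.21, SE 0.15), and Gclc, which begins glutathione synthesis (-0.30, SE 0.39). Without mutant replicate 1 the differences were -0.21 for Me1, -0.20 for Fth1 and 0.20 for Gclc, which thus turned. Nqo1, the quinone reductase, read 4.97 in that liver against 5.97 to 6.65 in the controls. Me1, Fth1, Gclc and Slc7a11 also lay below the controls there, whereas Gsr, Gclm and Txnrd1 lay within the control range. Srxn1 was highest in that liver, at 7.88 against 7.67 to 7.87 elsewhere. The part of NRF2 in the Hmox1 values was not tested. The 6 regulators of Hmox1 all had a lower mean in mutants, against 52.5% of all genes, with differences of -0.30 to -0.025. It was 5 of 6 after quantile normalization, median centring or the median over probe sets. It was also 5 of 6 without control replicate 2, mutant replicate 1 or mutant replicate 2, and 4 of 6 without control replicate 3. Of the 6, 0 had an unadjusted p under 0.05 in limma. Nfe2l2, which encodes NRF2, differed by -0.30 (SE 0.19; -0.15 without control replicate 3) and its partners Mafg and Mafk by -0.28 (SE 0.17) and -0.088 (SE 0.19). Hif1a, the hypoxia factor, differed by -0.17 (SE 0.15), and Bach1, a haem-sensing competitor of NRF2, by -0.089 (SE 0.20).

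Markers of other cells were high or low in some of the same livers. The 12 Kupffer cell and macrophage markers, all measured, had a summed signal of 11.64 to 12.09 (log2) in controls and of 12.63, 11.57 and 11.69 in mutants. Mutant replicate 1 was highest in this sum and in Hmox1, and mutant replicate 2 lowest in both; Kupffer cells are a known site of Hmox1, and their part in its values was not tested. The sum gives most weight to markers of high signal such as Cd5l, which read 10.73 in mutant replicate 1 against 8.58 to 9.69 elsewhere. In that liver Csf1r, Adgre1, Vsig4 and Cd163 lay within the control range and the other markers above it. Acute phase genes, a list chosen with earlier results of these data known, had a median difference of 0.92. Of 9 measured of 12 listed, 9 had a higher mean in mutants, against 47.5% of all genes. Of these 0 passed and 6 had an unadjusted p under 0.05 in limma, against 4.21% of all genes (2.01% higher in mutants). Without mutant replicate 1, 8 of the 9 had a higher mean and 5 an unadjusted p under 0.05. Lcn2 was highest in mutant replicate 1 at 13.57, against 11.19 and 10.14 in the other mutants and 6.88 to 7.93 in controls. Neutrophil markers, 9 measured of 12, also had their highest sum there, at 9.28 against 8.08 to 8.54 elsewhere. Of these 9, 6 had a higher and 3 a lower mean in mutants, and 0 passed. Prtn3 and Ngp, both higher, had an unadjusted p under 0.05 in limma, against 4.21% of all genes. Mutants lay wholly above controls in 3 of the 9, against 5.15% of all genes. Without mutant replicate 1, 5 of the 9 had a higher mean. Of the erythroid markers 8 of 14 were measured, the haemoglobin genes were not analysed here, and the sum ran from 10.50 to 11.10 in controls and 10.51 to 10.92 in mutants. The sum is carried by the bright Alas2, the erythroid form of the synthase, and Tfrc, the transferrin receptor. These 2 were highest in control replicate 1, the liver with the lowest Alas1, and the other 6 were not. The list's median lay highest in mutant replicate 2, at 0.30 above the control mean, against 0.12 in control replicate 1. Of the 8, 6 had a higher and 2 a lower mean in mutants, and 0 passed. The dim Rhag (0.63, SE 0.18) and Klf1 (-0.50, SE 0.20) had an unadjusted p under 0.05 in limma. With a signal minimum of 5, 0 of 7 measured did. Mutants lay wholly above controls in 2 of the 8, against 5.15% of all genes.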

How the data were processed

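The deposited values are log2 signals per probe set, 204531 on each of 6 arrays. Per the submitters' processing notes Affymetrix Expression Console 1.1, RMA, Partek 6.4 and mm9 were used, with no roles given. RMA normalizes arrays to each other and compresses dim differences. Probe sets with 1 gene symbol (185264) were named from the platform annotation, with older symbols updated through RefSeq (2104 of 16139); 3488 had several symbols and 15779 were not named. A probe set was kept where a group mean was 3 or more, and a gene needed at least 2. Groups were compared with limma 3.58.1 (lmFit, eBayes; diffSplice for exon usage, at least 3 probe sets) in R 4.3.3, with Benjamini-Hochberg adjustment over all features and a threshold of 0.05. With 3 arrays against 3, an exact two-sided permutation test cannot go below 0.1. Tested on simulated data for mutant against control, shifts of 0.5, 1 and 2 among 14996 genes were recovered in 0%, 32% and 80% of cases, with 4 false calls. Shifts were planted in many genes at once, which eases the adjusted threshold, and the noise was normal. Recovery in the deposited data can thus be lower, and Dhx32, at -1.92, missed the threshold there. The exon usage step over 14260 genes recovered 74.5% of losses of 3 in 1 probe set, with 91 false calls. In that simulation it thus called too many genes. In the deposited data 30 of 14310 genes passed this step. Members, lists and naming rule were chosen with earlier results of these data known. Named were all members and their probe sets of smallest p or largest change. Also named were the 4 genes closest to Alas1 and Hmox1, the members of largest range. In the lists of regulators, NRF2 targets, haem-using enzymes and haem handling, up to 4 genes of smallest p were named. Other single probe sets and genes named were chosen after their values were seen. These include genes named only from the cell marker, acute phase and clock lists.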

Additional observations from a re-analysis of the deposited data

How the results depend on the processing

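The count of haem genes past the threshold was 0 with other signal minimums, quantile normalization, median centring, the median over probe sets, a variance trend, array weights, the replicate block and each array left out. The count of haem probe sets was 0 under the same alternatives except the median over probe sets, which was not run for it. For exon usage it was 0 with the Simes form, the signal minimums, both normalizations, the block and each array left out. Of 126 recomputed gene differences 116 kept their direction, and Alas1 stayed higher in all, at 1.01 to 1.87. The signs turned for Alad (0.018) and Cpox (-0.0018) with the median over probe sets, and for Hmox1 (-0.26), Ppox (-0.022) and Uros (-0.018) with array weights, where the median over the 9 genes was -0.018. With 1 array left out that median ran from 0.026 to 0.32, Cpox from -0.058 to 0.32, Urod from 0.042 to 0.42, Uros from 0.026 to 0.31, Ppox from 0.024 to 0.32, Fech from -0.25 to 0.050 and Hmox1 from -0.33 to 0.67; the cause was not tested. Deviations of same-numbered arrays from their group means had correlations of 0.012, -0.12 and 0.13. With 3 mice per group, these values cannot show whether the numbers pair the mice. With the replicate block 0 haem genes passed, and the Alas1 difference was 1.43 (SE 0.28, adjusted p = 0.462 in limma). The unadjusted count over all genes was then 893 in place of 633. Over all genes that count ran from 323 to 1356 with 1 array left out and was 1217 with array weights. List medians under these alternatives were added after seeing the data. The number of arrays, 3 per group, limits the precision, and dim probe sets near 3 have compressed differences.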
